A study of Mus musculus with 8 samples.

Results

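The phagocyte NADPH oxidase was described through 5 of its genes, Cybb, Cyba, Ncf1, Ncf4 and Rac2, chosen by symbol from the 23293 mouse genes of the deposited expression table. All 5 were found once, and all 5 passed the filter on low values. RNA sequencing gave their mRNA levels in c-Kit-positive (Cd117) bone marrow cells, a fraction rich in blood stem and progenitor cells, enriched on magnetic beads from individual mice 4 weeks after PIpC. PIpC induces Mx1-cre, a recombinase active in blood-forming cells and in other interferon-responsive tissues. The 8 libraries fall into 4 genotypes with 2 mice each. The combined mice carried Mx1-cre, Flt3-ITD and the Smc3 deletion. The Flt3-ITD mice carried Mx1-cre and Flt3-ITD, a repeated stretch within the Flt3 gene that leaves this receptor kinase active and recurs in acute myeloid leukaemia. The Smc3 del/+ mice carried Mx1-cre and, by their label, a single deleted allele of Smc3, which encodes a core subunit of the cohesin ring. The control mice were Smc3 fl/+ without Mx1-cre, so they alone lacked the recombinase, and every comparison with control also compares its presence. The labels write the combined genotype as Smc3 fl/del Flt3-ITD in 1 field and as Smc3het_Flt3ITD in another. Nothing in the labels describes the mice as littermates or gives the sex.

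The oxidase is the enzyme with which phagocytes make superoxide. It passes electrons from NADPH across a membrane to oxygen, and the products feed the killing of microbes. Cybb encodes the catalytic subunit and Cyba its membrane partner, and each protein stabilises the other. Ncf1 is the cytosolic organiser that is phosphorylated on activation, Ncf4 is a cytosolic subunit that binds a membrane phosphoinositide, and Rac2 is the small GTPase that switches the complex on in neutrophils. Inherited loss of the enzyme causes chronic granulomatous disease in man, and Cybb is X-linked in mouse and man. Cybb, Ncf1 and Ncf4 are switched on as myeloid progenitors mature.

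Promoter windows of 300 bases, from 250 before to 50 after the start, were found for 3 of the 5 genes in RefSeq tables of build GRCm38.p6. All windows found are shown. The Cybb window is chrX:9469275-9469574, the Cyba window chr8:122432891-122433190 and the Ncf1 window chr5:134229576-134229875, all on the minus strand. Ncf4 and Rac2 lie on chromosome 15. Sequences run 5′ to 3′ along the gene, and capitals mark matches on either strand to GAGGAA (a core site of the myeloid factor PU.1), to CCAAT and TATAAA, or to GGGCGG.
Cybb: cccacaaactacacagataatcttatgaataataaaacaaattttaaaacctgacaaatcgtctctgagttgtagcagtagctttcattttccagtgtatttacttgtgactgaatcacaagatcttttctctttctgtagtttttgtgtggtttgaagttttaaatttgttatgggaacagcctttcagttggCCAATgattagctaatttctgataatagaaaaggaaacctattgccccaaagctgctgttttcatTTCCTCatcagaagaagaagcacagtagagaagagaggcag
Cyba: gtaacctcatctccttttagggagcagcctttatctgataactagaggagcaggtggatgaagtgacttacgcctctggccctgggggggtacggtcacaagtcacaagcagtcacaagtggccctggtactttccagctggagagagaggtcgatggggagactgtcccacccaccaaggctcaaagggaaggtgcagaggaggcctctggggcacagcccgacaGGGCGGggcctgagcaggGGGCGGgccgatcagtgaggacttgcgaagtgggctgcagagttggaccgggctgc
Ncf1: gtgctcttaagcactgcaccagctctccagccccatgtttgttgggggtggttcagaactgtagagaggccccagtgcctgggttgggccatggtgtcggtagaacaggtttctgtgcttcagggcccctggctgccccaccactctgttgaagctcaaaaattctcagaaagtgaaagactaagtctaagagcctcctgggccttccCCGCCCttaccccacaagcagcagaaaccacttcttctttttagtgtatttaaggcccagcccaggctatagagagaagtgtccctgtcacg
The Cybb window held CCAAT with its first base 56 before the start and TTCCTC, which is GAGGAA read on the other strand, 10 after it. The Cyba window held GGGCGG at 24 and at 6 bases before the start, and the Ncf1 window CCGCCC, the same motif on the other strand, at 42 before. Of 32851 promoter windows of the same length, 28.3% held GAGGAA, 37.4% CCAAT, 13.6% TATAAA and 35.7% GGGCGG on either strand, so each of these matches is common. They describe letters in these windows, not binding sites, and no motif was shared by all 3.

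Values are FPKM, sequenced fragments relative to transcript length and library size, as the authors deposited them, and levels of different genes are compared on this per-length scale. Depth in reads is unknown. Between 8878 and 11076 mouse genes were listed at 0 per library, with the most in combined replicate 2, and spike-in RNAs made up 1.73% to 2.83% of all FPKM. The gene Mir5133 had 79427 and 33515 FPKM in control libraries, 21640 in Smc3 del/+ replicate 2 and 0 in all others. It takes up part of the FPKM total where it is present, and an alternative scaling below left it out of the totals. The replicates of the combined group lay farthest apart, with an SD of their log2 differences over genes of 0.701, against 0.350 to 0.409 in the other groups. Kit was present in all libraries, at 40.1 and 37.4 FPKM in combined, 48.1 and 57.6 in Flt3-ITD, 49.5 and 48.9 in Smc3 del/+ and 60.1 and 54.9 in control libraries. Smc3 was at 103 and 136 FPKM in combined, 94.7 and 89.9 in Flt3-ITD, 135 and 133 in Smc3 del/+ and 119 and 112 in control libraries. No library labelled Smc3 del/+ or combined was below its counterparts without the deletion in Smc3, and directions for that deletion below rest on the labels. In the authors' normalized table Smc3 was at 148 and 129 FPKM in Smc3 del/+ and at 141 and 161 FPKM in control libraries. The genotypes also differed in Xist, the RNA of the inactive X chromosome, at 596 and 500 FPKM in combined and 657 and 617 in control libraries against at most 0.936 in Flt3-ITD and Smc3 del/+ libraries. Flt3-ITD against control and Smc3 del/+ against control therefore also compare low with high Xist. Combined against Flt3-ITD and combined against Smc3 del/+ compare high with low Xist, by 8.80 and 8.36 on the log2 scale, and for the X-linked Cybb its part in the result was not tested.

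Beside 37.4 to 60.1 FPKM of Kit, the libraries held 1432 to 4644 FPKM of Ltf, a gene of neutrophil secondary granules. Cybb was among their most abundant mRNAs, and which cells of the mixture held it was not tested. It had 913 and 731 FPKM in combined libraries, 1169 and 943 in Flt3-ITD, 556 and 487 in Smc3 del/+ and 398 and 420 in control libraries. The Flt3-ITD libraries were highest and the control libraries lowest, with no overlap between any of the 4 genotypes. How many genes separate in this way was not counted. For single pairs it is common, with Flt3-ITD above control for 34.3% of genes tested and combined below Flt3-ITD for 16.8%. By rank Cybb stood 33rd in the highest library and 139th in the lowest. Its membrane partner Cyba had 248 and 174 FPKM in combined libraries, 310 and 250 in Flt3-ITD, 181 and 163 in Smc3 del/+ and 124 and 136 in control libraries. Flt3-ITD was again highest and control lowest, while combined replicate 2 fell within the Smc3 del/+ range.

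Among the cytosolic subunits, Ncf1 had 378 and 243 FPKM in combined libraries, 508 and 432 in Flt3-ITD, 221 and 223 in Smc3 del/+ and 173 and 193 in control libraries. The genotypes did not overlap and stood in the order seen for Cybb, again without a count of other genes that do so. Ncf4 was the lowest of the 5 and the least even between replicates, with 145 and 116 FPKM in combined libraries, 217 and 153 in Flt3-ITD, 102 and 100 in Smc3 del/+ and 84.4 and 133 in control libraries. Both Flt3-ITD libraries were above all others, and the controls spanned both Smc3 del/+ values and combined replicate 2. The GTPase Rac2 had 369 and 269 FPKM in combined libraries, 464 and 361 in Flt3-ITD, 260 and 257 in Smc3 del/+ and 269 and 250 in control libraries. Combined replicate 1 exceeded Flt3-ITD replicate 2, and Smc3 del/+ lay inside the control range.

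**Figure D1:**
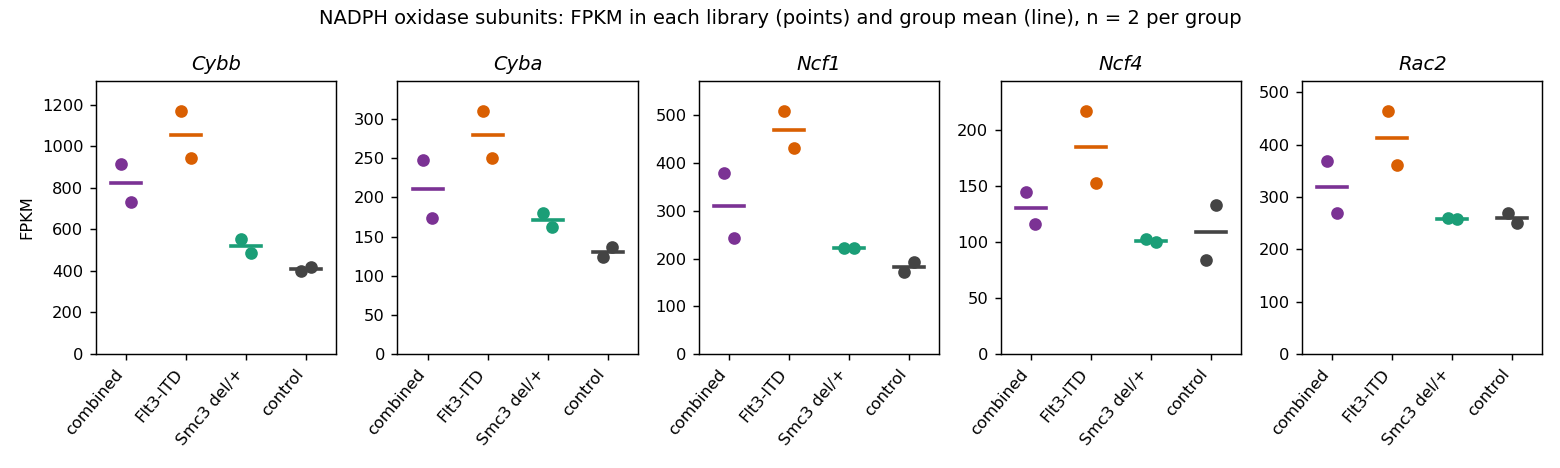
FPKM of Cybb, Cyba, Ncf1, Ncf4 and Rac2 (vertical axes from 0, 1 scale per gene) in the 4 genotypes, with 1 point per library and a line at the mean of 2. Flt3-ITD has the highest mean for each gene, and control libraries are lowest for Cybb, Cyba and Ncf1.

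In order of group means the genotypes stood as Flt3-ITD, combined, Smc3 del/+ and control for Cybb, Cyba and Ncf1. For Ncf4 the order was Flt3-ITD, combined, control and Smc3 del/+, and Rac2 averaged 259 FPKM in both Smc3 del/+ and control. No pair of neighbours in these orders passed the test for any of the 5 genes. On the FPKM scale Cybb was the highest of the 5 in every library, at 37.1% to 47.7% of their sum, and Ncf4 the lowest.

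Flt3-ITD was compared with control to see what goes with that genotype when the Smc3 deletion is absent, although Mx1-cre and Xist differ too. Catalytic Cybb, its partner Cyba and the organiser Ncf1 were called higher, and the values of Ncf4 and Rac2 were higher but missed the threshold. Cybb averaged 1056 ± 160 FPKM in Flt3-ITD libraries and 409 ± 15.4 in control libraries (SD, n = 2 each), 2.58 times as much. Ncf1 averaged 470 ± 54.3 FPKM in Flt3-ITD and 183 ± 14.2 in control libraries, and Cyba 280 ± 42.3 and 130 ± 8.68 (SD, n = 2 each). These 3 of 5 genes passed as higher, where 8.51% of the 10854 genes tested did. In all 5 both Flt3-ITD libraries lay above both controls, as for 34.3% of genes tested. The log2 fold change was 1.36 ± 0.183 for Cybb (SE; limma with Benjamini-Hochberg adjustment over all genes tested, adjusted p = 0.00445). It was 1.36 ± 0.214 for Ncf1 (limma adjusted p = 0.00735) and 1.09 ± 0.196 for Cyba (limma adjusted p = 0.0115). For Rac2 it was 0.66 ± 0.192 (limma adjusted p = 0.0529) and for Ncf4 0.77 ± 0.253 (limma adjusted p = 0.0728). The median of the 5 was 1.09, beside -0.0068 over all genes tested.

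These calls depended on the scale and on single mice. In the authors' normalized table the median of all genes fell by 0.58 on the log2 scale, and Cybb stood 1.47, Ncf1 1.44, Cyba 1.17, Ncf4 0.84 and Rac2 0.75 above that median. In the main table the same distances were 1.36, 1.36, 1.099, 0.78 and 0.66. After the authors' normalization Cybb and Ncf1 passed and Cyba did not (limma adjusted p = 0.103). All 5 genes stayed above 0 under each alternative run, the lowest value being 0.11 for Rac2 with equal spike-in totals. Over the fits without 1 library, Cybb ran from 1.20 to 1.51, Ncf1 from 1.24 to 1.47 and Cyba from 0.94 to 1.25. Ncf4 ran from 0.45 to 1.10 and Rac2 from 0.48 to 0.84. Which of the 5 passed changed with the library left out. Without both combined libraries all 5 passed, where calls over all genes rose too.

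The combined mice shared these controls. Cybb was higher in them, at 822 ± 129 FPKM against 409 ± 15.4 in control libraries (SD, n = 2 each), with a log2 fold change of 0.996 ± 0.183 (SE; limma adjusted p = 0.0164). It was the single one of the 5 to pass, where 5.41% of genes tested passed as higher. Both combined libraries were above both controls for Cybb, Cyba, Ncf1 and Rac2, as for 25.8% of genes tested. Cyba had a log2 fold change of 0.67 (limma adjusted p = 0.0680), Ncf1 0.73 (0.0687), Ncf4 0.29 (0.502) and Rac2 0.28 (0.379). In the authors' normalized table, whose median gene fell by 0.67 here, Cybb was 0.36 higher without passing and Cyba, Ncf4 and Rac2 were at -0.0028, -0.40 and -0.37. Both groups had high Xist. Kit, whose product was used to enrich the cells, passed as lower here, as did 6.38% of genes tested. Its log2 fold change was -0.56 (limma adjusted p = 0.0391), and its part in the subunits' values was not tested. Over the fits without 1 library, Cybb ran from 0.84 to 1.16, Cyba from 0.42 to 0.92 and Ncf1 from 0.41 to 1.05. Ncf4 ran from -0.038 to 0.61 and Rac2 from 0.055 to 0.51. Which of the 5 passed changed with the library left out.

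**Figure D2:**
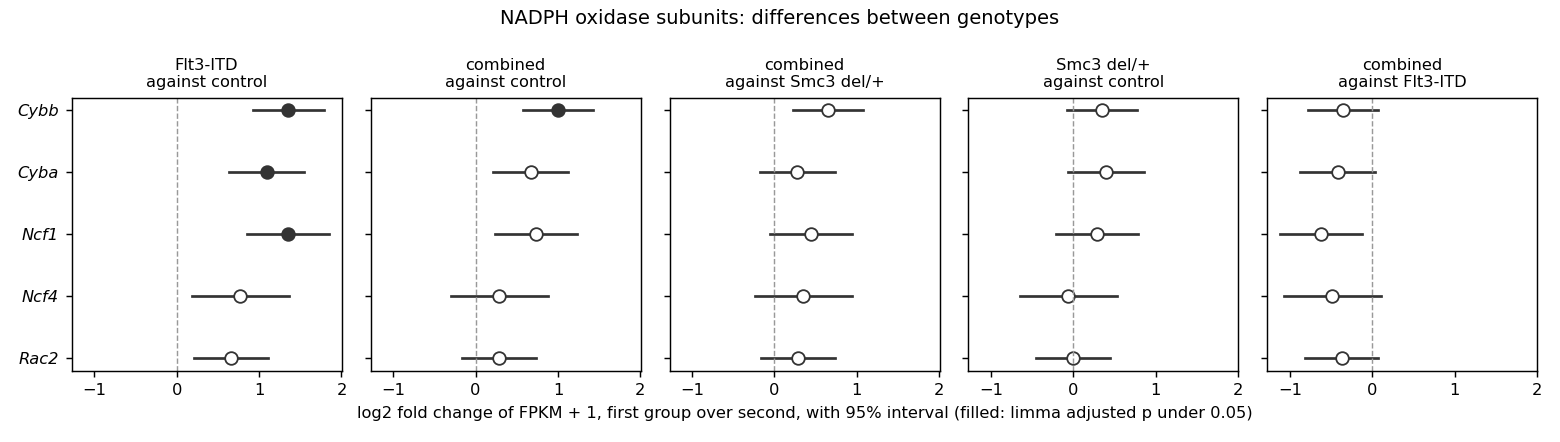
log2 fold change of FPKM + 1 (horizontal axis, first group over second, with 95% interval) of the 5 genes in 5 comparisons. Filled points passed the limma threshold: Cybb, Cyba and Ncf1 in Flt3-ITD against control, and Cybb in combined against control.

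Smc3 del/+ was compared with control to see what goes with that label when Flt3-ITD is absent, although Smc3 itself was not lower and Mx1-cre and Xist differ too. Cybb averaged 521 ± 48.3 FPKM in Smc3 del/+ and 409 ± 15.4 in control libraries, Cyba 172 ± 12.8 and 130 ± 8.68, and Ncf1 222 ± 0.978 and 183 ± 14.2 (SD, n = 2 each). In these 3 both Smc3 del/+ libraries lay above both controls, as for 24.2% of genes tested, but none of the 5 passed (limma adjusted p = 1 for each). The log2 fold changes were 0.35 for Cybb, 0.39 for Cyba, 0.28 for Ncf1, -0.06 for Ncf4 and -0.0022 for Rac2, and the 95% interval for Cybb ran from -0.080 to 0.77. Of all genes tested 1 passed this comparison, 0.00921%, namely Xist, which was lower (limma, with 494 genes at an unadjusted p under 0.05). With equal spike-in totals Cybb and Ncf1 were at -0.026 and -0.089, and in the authors' normalized table Ncf1 was at -0.047.

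Combined mice were set against Flt3-ITD to see what goes with the Smc3 deletion label when Flt3-ITD is present, although Xist differs too. All 5 values were lower in combined mice, by 0.63 for Ncf1, 0.49 for Ncf4, 0.42 for Cyba, 0.37 for Rac2 and 0.36 for Cybb on the log2 scale, and none passed (limma adjusted p from 0.376 for Ncf1 to 0.499 for Ncf4). Both combined libraries lay below both Flt3-ITD libraries for all but Rac2, as for 16.8% of genes tested, and 0.0461% of genes passed as lower. Markers of several lineages differed here too, with a median of 1.05 for 21 erythroid markers (18 positive, none called), 2.03 for 7 eosinophil markers (1 called higher), 0.35 for 14 monocyte markers and -0.46 for 17 neutrophil markers. Their part in the subunits' values was not tested. The sizes here depended on single mice. Over the fits without 1 library, Ncf1 ran from -0.95 to -0.31, Cyba from -0.67 to -0.17 and Cybb from -0.52 to -0.20. Ncf4 ran from -0.74 to -0.23 and Rac2 from -0.60 to -0.15. Against Smc3 del/+ the combined libraries were higher for Cybb by 0.65 (limma adjusted p = 0.0903) and for the other 4 by 0.28 to 0.45, and none passed, where 2.55% of genes tested passed as higher. Both combined libraries lay above both Smc3 del/+ libraries for all but Cyba, as for 22.3% of genes tested. There the fits without 1 library ran from 0.49 to 0.81 for Cybb, 0.024 to 0.53 for Cyba and 0.13 to 0.77 for Ncf1. They ran from 0.19 to 0.51 for Ncf4 and 0.058 to 0.51 for Rac2.

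The difference between the 2 effects of the Smc3 deletion, combined over Flt3-ITD less Smc3 del/+ over control, was negative for all 5 genes. It was -0.91 for Ncf1, -0.82 for Cyba, -0.71 for Cybb, -0.42 for Ncf4 and -0.37 for Rac2 on the log2 scale, and none passed (limma adjusted p from 0.430 for Ncf1 to 0.743 for Ncf4), where 0.0369% of genes tested did. Over the fits without 1 library, Cybb ran from -0.87 to -0.547, Cyba from -1.07 to -0.562 and Ncf1 from -1.23 to -0.589. Averaging over both Smc3 states sets 4 libraries against 4 and high and low Xist evenly, but not Mx1-cre, which the controls alone lacked. There Flt3-ITD went with higher Cybb by 1.004 (limma adjusted p = 0.00628) and Ncf1 by 0.90 (0.0183). Cyba was higher by 0.68 (limma adjusted p = 0.0341) and Rac2 by 0.47 (0.0474). Ncf4 was 0.56 higher (limma adjusted p = 0.0576). These 4 of 5 calls stand beside 10.9% of all genes tested called higher, and Cybb kept its call in each of 18 alternatives. Cybb alone passed in the authors' normalized table and without either control or either Flt3-ITD library. For Cybb, Ncf1 and Rac2 all 4 carriers lay above all 4 others, as for 12.1% of genes. Averaged over both Flt3 states, the Smc3 deletion went with values from -0.27 to -0.0079, and none of the 5 genes passed (limma adjusted p of at least 0.901). No gene of the table passed that comparison (limma, with 525 genes at an unadjusted p under 0.05).

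Some proportions between subunits also differed by genotype, and others overlapped. Cybb over Rac2, the catalytic subunit over the GTPase, was 2.47 and 2.72 in combined libraries, 2.52 and 2.62 in Flt3-ITD, 2.13 and 1.89 in Smc3 del/+ and 1.48 and 1.68 in control libraries, as ratios of FPKM. All 4 libraries with Flt3-ITD were above all 4 without it, and both Smc3 del/+ libraries were above both controls. Cybb over Cyba was 3.68 and 4.198 in combined libraries, 3.77 and 3.77 in Flt3-ITD, 3.07 and 2.997 in Smc3 del/+ and 3.21 and 3.08 in control libraries. Here too the 4 libraries with Flt3-ITD were above the 4 without it. Other ratios overlapped between libraries with and without Flt3-ITD. Cybb over Ncf4 was 6.29 and 6.31 in combined libraries, 5.39 and 6.18 in Flt3-ITD, 5.42 and 4.85 in Smc3 del/+ and 4.72 and 3.16 in control libraries. Ncf1 over Cyba was 1.53 and 1.393 in combined, 1.64 and 1.72 in Flt3-ITD, 1.22 and 1.37 in Smc3 del/+ and 1.390 and 1.412 in control libraries. Cybb over Ncf1 was between 2.18 and 3.01 over all 8 libraries, also with overlap. Rac2 over Rac1, its widely expressed relative, was between 1.20 and 1.75. A ratio within a library does not depend on the scaling between libraries when a single factor is used, and these ratios were described and not tested. How often ratios of other genes split the genotypes in this way was not counted.

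**Figure D3:**
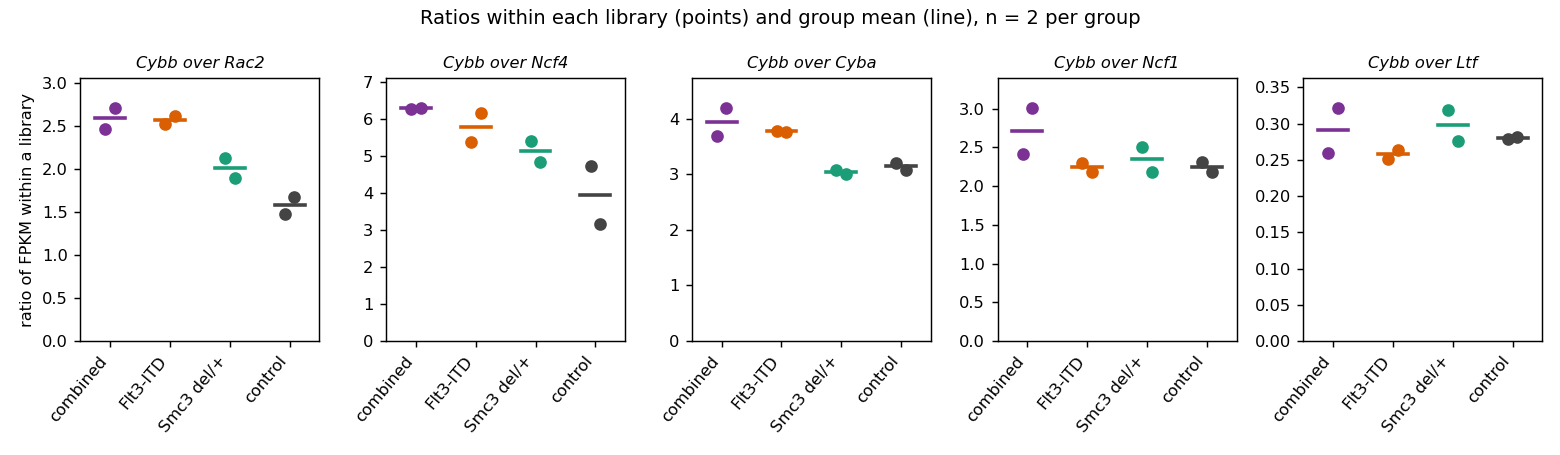
Ratios of FPKM within a library (vertical axes from 0) for Cybb over Rac2, Ncf4, Cyba, Ncf1 and the neutrophil granule gene Ltf, with 1 point per library and a line at the mean of 2. Cybb over Rac2 is 2.47 to 2.72 where Flt3-ITD is present and 1.48 to 2.13 where it is absent. Cybb over Ncf4 and Cybb over Ncf1 overlap between libraries with and without Flt3-ITD. Cybb over Ltf, a single gene of 17 neutrophil markers, is between 0.252 and 0.322.

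The partners of the enzyme went the same way more often than not. Of 34 other oxidase and activation genes found, 27 were tested in Flt3-ITD against control, and 18 rose, 1 fell and 8 did not pass. Their median log2 fold change was 0.64, beside -0.0068 over all genes tested, where 18% passed in either direction, 9.5% as lower. Hvcn1, the proton channel that balances the charge the oxidase moves, had 91.1 and 74.1 FPKM in combined, 114 and 119 in Flt3-ITD, 74.8 and 84.0 in Smc3 del/+ and 55.6 and 59.1 in control libraries. It rose by 1.01 in Flt3-ITD (limma adjusted p = 0.00491). The kinase genes Prkcb, whose product phosphorylates Ncf1, and Pik3cg rose by 1.07 and 0.83.

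Some partners did otherwise. Prkca, another protein kinase C gene, was the single gene of the list to fall, with 0.916 and 1.26 FPKM in Flt3-ITD against 4.58 and 4.46 in control libraries and a log2 fold change of -1.41. Rac1 rose by 0.48 (limma adjusted p = 0.0397), but was at -0.01 in the authors' normalized table and -0.06 with equal spike-in totals. BC017643, an older symbol of Cybc1, whose product is needed to make the membrane pair, had 17.8 and 22.5 FPKM in Flt3-ITD and 14.5 and 14.4 in control libraries and did not pass (limma adjusted p = 0.187). Of the oxidase's relatives in other tissues, Nox3, Nox4, Duox1 and the activator Noxa1 were listed at 0 in all 8 libraries, Nox1 was above 0 in Smc3 del/+ replicate 2 (0.210 FPKM) and Duox2 in control replicate 2 (0.0216 FPKM). Prkca, Rac1, BC017643 and these relatives were picked after their values were seen. Counts for the list move with the scale: 1 rose and 2 fell in the authors' normalized table, where its median was 0.09 beside -0.58 for all genes. Without both combined libraries 23 rose and 1 fell, where calls over all genes rose too. The counts also changed when a single control was left out.

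**Figure D4:**
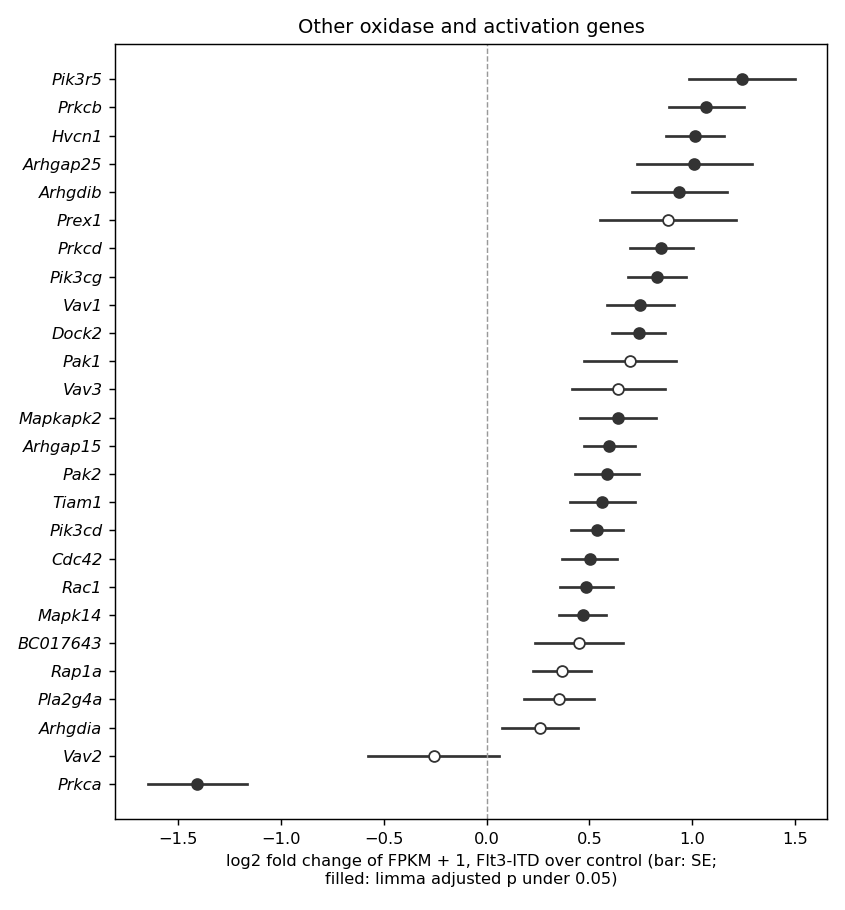
log2 fold change of FPKM + 1 in Flt3-ITD over control (horizontal axis, bar: SE) of 26 tested oxidase and activation genes beyond the 5 subunits. Filled points passed the limma threshold: 17 lie above 0, with Prkcb at 1.07, and Prkca lies below it at -1.41.

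Receptors whose signals reach the oxidase had a median log2 fold change of 0.94 in Flt3-ITD against control. Of 23 tested, 11 rose and none fell, where 8.51% of all genes tested passed as higher and 9.5% as lower. They include Itgam, the alpha chain of an integrin that binds complement (log2 fold change 1.31), C5ar1, the receptor of a complement fragment (1.23), Csf2ra, a chain of the GM-CSF receptor (1.17), and Fcer1g, the signalling chain of Fc receptors (1.05). Itgam had 367 and 239 FPKM in combined, 426 and 350 in Flt3-ITD, 189 and 175 in Smc3 del/+ and 145 and 166 in control libraries, in the order of means seen for Cybb. In the authors' normalized table, 3 of the 23 rose, where 0.961% of all genes were called higher and 43.2% lower. Calls of the receptors also changed when a single control was left out. Among 21 regulators of the genes, 7 rose and 1 fell, with Irf8 at 1.35, Cebpe at 1.02 and Ets1 at 0.92 higher and Gata2, a factor of early progenitors, at -1.26. Sfpi1, the older symbol of the PU.1 gene and picked after its values were seen, rose by 0.89 (limma adjusted p = 0.0485). In the authors' normalized table, 0 of these regulators rose and 4 fell, a share of falls below that of all genes there. Combined against control gave 9 higher and 1 lower of 27 partners, 6 and 0 of 23 receptors, and 3 and 1 of 21 regulators, where 5.41% of all genes tested passed as higher and 6.38% as lower.

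Genes around the enzyme's substrate and products moved less evenly. Of 12 tested genes that supply NADPH, 3 rose and 1 fell in Flt3-ITD, against none and 3 in the authors' normalized table. All genes tested had 8.51% higher and 9.5% lower in the main table, and 0.961% and 43.2% in the authors' normalized one. G6pdx, the entry enzyme of the pentose phosphate pathway, rose by 0.96, with 281 and 201 FPKM in Flt3-ITD and 117 and 127 in control libraries. Idh1 and Nadk rose by 0.71 and 0.79, and the folate enzyme Mthfd1 was at -1.95. Of 25 genes that handle peroxide and superoxide, 2 rose and 8 fell, with a median of -0.68, and none rose and 20 fell in the authors' normalized table, beside the same shares of all genes. The 2 that rose, picked after their values were seen, were Gsr, which regenerates reduced glutathione (0.83), and the peroxidase gene Prdx5 (0.95). Prdx2, a peroxidase abundant in red cells, had 27.6 and 24.1 FPKM in Flt3-ITD against 140 and 127 in control libraries, a log2 fold change of -2.33, and Hmox1, also on the macrophage marker list, was at -2.15. In the same comparison 20 of 21 erythroid markers fell. Their part in these values was not tested.

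Markers of maturing myeloid cells also differed between genotypes. In Flt3-ITD against control 9 of 17 neutrophil markers rose and none fell (median 1.27), as did 5 of 14 primary granule markers (median 0.52) and 5 of 14 monocyte markers with 1 that fell (median 0.88). Of all genes tested 8.51% passed as higher and 9.5% as lower. In the authors' normalized table, 5 neutrophil, 0 primary granule and 1 monocyte markers rose, where 0.961% of all genes were called higher and 43.2% lower. Of 10 stem and progenitor markers 3 fell, among them Tal1 and Gata2, and none rose. Summed neutrophil markers were 151913 to 180465 FPKM in combined, 169764 to 239389 in Flt3-ITD, 110420 to 114516 in Smc3 del/+ and 83193 to 90566 in control libraries, with combined and Flt3-ITD overlapping and control lowest. Summed monocyte markers were 2419 to 3036 FPKM in combined, 3133 to 3446 in Flt3-ITD, 1414 to 1617 in Smc3 del/+ and 1629 to 1652 in control libraries, so Smc3 del/+ was not above control there. Ly6c2 made up most of this sum, with 2145 and 1810 FPKM in combined, 2679 and 2822 in Flt3-ITD, 1200 and 1357 in Smc3 del/+ and 1400 and 1339 in control libraries. Taken gene by gene the list went otherwise: its median log2 fold change against control was 1.22 in combined and 0.88 in Flt3-ITD mice, and in combined against Flt3-ITD it was 0.35, with 11 of 14 positive, while all 5 subunits were negative. In Smc3 del/+ against control the monocyte median was -0.18 and the neutrophil median 0.26, beside 0.28 for the 5 subunits. Of the macrophage markers 7 of 10 fell and 1, Emr1, rose, while 12 of 14 B cell markers fell and 12 of 15 megakaryocyte markers fell. Of 7 eosinophil markers Siglec5 rose and the others did not pass. No marker of these lists was listed at 0 in all 8 libraries. Eosinophil markers summed to 249 to 583 FPKM in combined, 139 to 159 in Flt3-ITD, 144 to 167 in Smc3 del/+ and 76.4 to 76.8 in control libraries. In a bulk library a smaller share of cells of a type and less RNA per cell cannot be told apart, and the part of the cell mixture in the subunits' values was not tested.

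**Figure D5:**
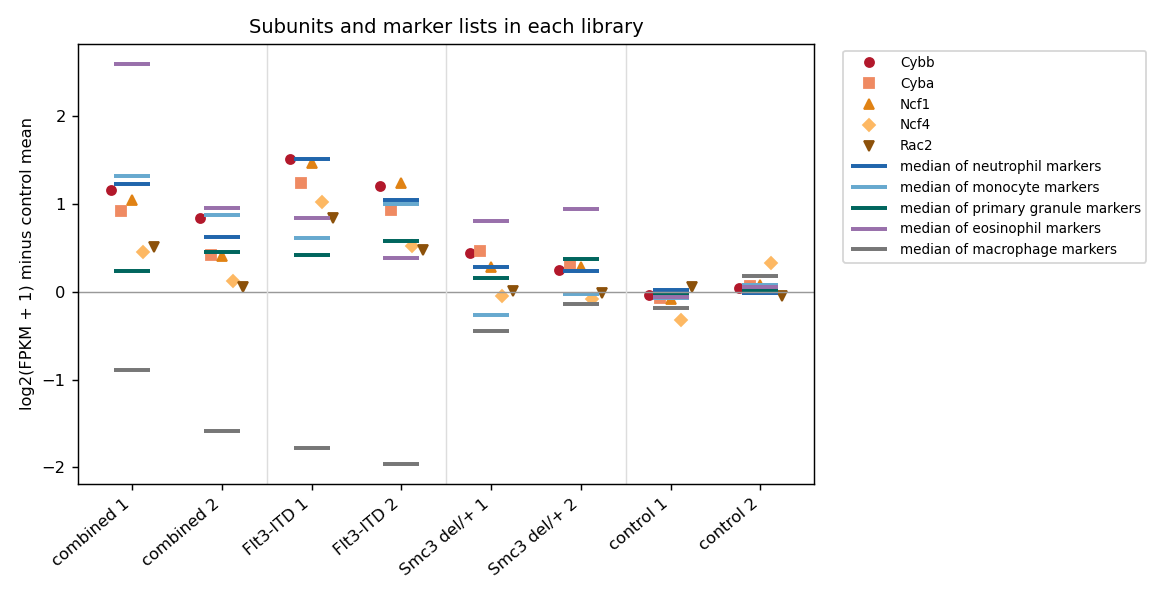
log2(FPKM + 1) less the control mean (vertical axis) in each of the 8 libraries, with points for the 5 subunits and bars for the median of 5 marker lists. Cybb and Ncf1 are highest in the 2 Flt3-ITD libraries, and the macrophage median lies between -1.96 and -0.888 in the 4 libraries with Flt3-ITD and between -0.449 and 0.180 in the 4 without it.

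Cybb and Rac2 were also set against Ltf, the lactoferrin gene of neutrophil secondary granules. Ltf is a single gene of the 17 neutrophil markers, and ratios to the other markers were not computed. The share of neutrophils cannot be read from these ratios. Cybb over Ltf was 0.260 and 0.322 in combined libraries, 0.252 and 0.263 in Flt3-ITD, 0.319 and 0.275 in Smc3 del/+ and 0.278 and 0.282 in control libraries, so that Flt3-ITD lay below Smc3 del/+ and control while the combined values lay within the Flt3-ITD range and above all others. Rac2 over Ltf was 0.105 and 0.119 in combined libraries, 0.0998 and 0.101 in Flt3-ITD, 0.150 and 0.145 in Smc3 del/+ and 0.188 and 0.168 in control libraries. This ratio was lower than in control in the other 3 genotypes, and lowest in Flt3-ITD.

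Across the 8 libraries on the log2 scale, the 5 genes went together, with Pearson's r from 0.829 for Cybb and Ncf4 to 0.981 for Cyba and Ncf1. These are descriptions over 8 libraries that share 4 genotypes. The genes most like Cybb were Ppp3ca (r = 0.996), Acpp (0.996) and Adpgk (0.994), and those most like Cyba were Rhog (0.995), Atp2a3 (0.995) and Sh3kbp1 (0.992). For Ncf1 they were Fam21 (0.996), Itgb2 (0.995) and Pde8a (0.994), and for Rac2 Cpd (0.990), App (0.989) and Ly75 (0.986). Ncf4 had the least company, with Pcsk7 (0.969), Camk1 (0.966) and Mtm1 (0.963) nearest. By rank the likeness of Rac2 to App and Ly75 was weaker (Spearman's rho 0.786 and 0.714). Of 10854 genes tested, those above r = 0.95 were 268 for Ncf1, 252 for Cybb, 243 for Cyba, 128 for Rac2 and 9 for Ncf4. Each subunit thus shared its pattern with other genes, and Ncf4 with the fewest.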

How the data were processed

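Per the labels' protocols, c-Kit cells were enriched on magnetic beads, Trizol was used to isolate RNA, and polyadenylated RNA went into directional libraries. The authors deposited FPKM values in 2 tables, 1 before and 1 after a normalization whose method the sources used here do not state. The submitters' processing notes name mm9, Cufflinks 2.0.0 and TopHat without their roles. They give neither the gene models nor whether strand was used in counting, so a gene and an overlapping antisense gene cannot be told apart. FPKM tables hold no read counts, and the depth in reads is unknown.

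The first table was tested as log2(FPKM + 1), with the pseudocount understating changes of low genes. Genes averaging at least 1 FPKM over 8 libraries (10854 of 23293, without 92 spike-in rows) were fitted with limma 3.58.1 (R 4.3.3), using a variance trend and Benjamini-Hochberg adjustment at 0.05. Group comparisons came from 4 group means (4 residual degrees of freedom), averaged effects from an additive model (5). Libraries of 1 group are separate mice. Comparisons with control share the same 2 controls. The fit was tested on simulated data.

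The 5 genes, the partner and marker lists and the tests were chosen with earlier results of these data known. Besides the 5 genes, Smc3, Flt3, Kit and Xist, up to 4 genes per list with the smallest p in Flt3-ITD against control, and the 3 genes most correlated with each subunit could be named, and some genes of these lists are not reported here. The alternatives were other pseudocounts, filters and scalings, fits without the variance trend or with the compared groups alone, a replicate block and fits without single libraries. Equal spike-in totals and leaving out both combined libraries were added after seeing the data. Promoter windows came from RefSeq tables of another build than the files, so no gene coordinates of the files were used.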

Additional observations from a re-analysis of the deposited data

Results flagged for a closer look

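For Cybb, Cyba and Ncf1 the Smc3 deletion went with opposite directions in the 2 Flt3 backgrounds. Every combined library was below both Flt3-ITD libraries, and every Smc3 del/+ library was above both controls. With equal spike-in totals Smc3 del/+ against control was at -0.026 for Cybb and -0.089 for Ncf1, and in the authors' normalized table at -0.047 for Ncf1, so that the opposite directions held for Cyba but not for Cybb and Ncf1 under every scaling. The difference of the 2 effects was -0.71 for Cybb, -0.82 for Cyba and -0.91 for Ncf1 on the log2 scale. By limma it did not pass for any of them (adjusted p = 0.465, 0.445 and 0.430). Without combined replicate 2 it was -0.547, -0.562 and -0.589, and over all fits without 1 library it reached -0.87, -1.07 and -1.23. Moves that were opposite in this way were seen for 1074 of 10854 genes tested (9.89%), of which 489 (4.51%) went in the direction of these 3. Xist splits the groups the same way, being high in combined and control libraries, and its part in the difference was not tested.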

How the results depend on the processing

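The number of the 5 subunits that passed in Flt3-ITD against control was 3, with 2 (Cybb and Ncf1) in the authors' normalized table and with equal spike-in totals, 1 (Cybb) without the low-value filter, 4 with the compared groups alone, 5 without both combined libraries, and 0 to 5 without single libraries. In combined against control it was 1, with 0 without the filter, in the authors' normalized table, with the compared groups alone or with equal spike-in totals, and 0 to 4 without single libraries. It was 0 in combined against Flt3-ITD and against Smc3 del/+ (0 to 4 without single libraries) and for the difference of the Smc3 effects (0 to 3). For Flt3-ITD averaged over both Smc3 states it was 4, with 1 (Cybb) without the filter, in the authors' table, with equal totals without Mir5133 or with equal spike-in totals, 2 under quantile normalization, and 1 to 5 without single libraries.

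Reversed values were as follows, on the log2 scale. In the authors' table and with equal spike-in totals, combined against control gave -0.0028 and -0.032 for Cyba, -0.40 and -0.41 for Ncf4, and -0.37 and -0.42 for Rac2. Combined against Smc3 del/+ gave -0.059 and -0.056 for Cyba and -0.047 and -0.049 for Rac2. Smc3 del/+ against control gave -0.047 and -0.089 for Ncf1, and -0.026 with equal spike-in totals for Cybb. Without single libraries, Smc3 del/+ against control ran from -0.39 to 0.26 for Ncf4 and from -0.054 to 0.050 for Rac2, and combined against control for Ncf4 from -0.038 to 0.61. The averaged Smc3 effect ran from -0.12 to 0.13 for Cybb, -0.13 to 0.17 for Cyba and -0.29 to 0.046 for Ncf1. The cause of these moves was not tested.

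Over all genes, 1955 passed in Flt3-ITD against control, with 940 without the filter, 4874 in the authors' table, 3603 with the compared groups alone, 3507 with equal spike-in totals, 4231 without both combined libraries, and 243 to 4235 without single libraries. Of the calls 47.3% were higher in the main table, against 2.17% in the authors' table, 12.4% with equal totals without Mir5133 and 2.94% with equal spike-in totals. In combined against control 1279 passed (45.9% higher), with 653 without the filter, 5981 in the authors' table (2.07% higher), 41 with the compared groups alone, 4874 with equal spike-in totals, and 83 to 3427 without single libraries. In combined against Smc3 del/+ 591 passed, with 111, 1303, 2 and 910 under the same 4 settings and 7 to 2724 without single libraries. In combined against Flt3-ITD 31 passed, with 5 at a pseudocount of 0.1, 7 without the filter, 17 at a mean of at least 5 FPKM, 2 with the compared groups alone, 3 with the replicate block and 3 to 3248 without single libraries. In Smc3 del/+ against control 1 passed, with 3 at a pseudocount of 0.1, 6 at 5, 24 without the filter, 12 in the authors' table, 4 under quantile normalization, 2 with equal totals without Mir5133, 3 without the variance trend, 22 with the compared groups alone, 15 with equal spike-in totals, 12 without both combined libraries and 1 to 12 without single libraries. For the difference of the Smc3 effects 4 passed, with 17 without the filter, 19 in the authors' table, 7 with equal totals without Mir5133, 7 without the variance trend, 30 with equal spike-in totals and 4 to 2036 without single libraries. For averaged Flt3-ITD 2581 passed, with 1447 without the filter, 5053 in the authors' table, 4405 with equal spike-in totals and 1208 to 4703 without single libraries. For averaged Smc3 0 passed, with 1 without the filter, 3 in the authors' table, 1 with the replicate block, 4 with equal spike-in totals and 0 to 1 without single libraries.

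The labels do not say that a replicate number marks a shared batch. Replicate differences of group pairs correlated at -0.113 to 0.0229 over 10854 genes, so no pairing by number was seen. A shared effect that is small or limited to few genes could be missed by this check. With a replicate block 4 of the 5 subunits passed in Flt3-ITD against control. Libraries of 2 per genotype limit all of these tests, and where 1 was left out the lone library was assumed to vary like the others. Precision also depends on an unknown read depth.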
